A study of Mus musculus with 30 samples.

Results

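The peptide hormone genes of the hypothalamus that act through the pituitary were followed in newborn female mice over a day after an estrogen injection. They were Avp (vasopressin), Oxt (oxytocin), Crh (corticotropin-releasing hormone), Trh (thyrotropin-releasing hormone), Sst (somatostatin), Ghrh (growth hormone-releasing hormone) and Gal (galanin). They were chosen by name, 7 genes of the 18193 with a probe set of a single symbol on the array. The rule used none of their measured values, but earlier results of these data were known when they were chosen. Each was read by 1 probe set, and 7 of 7 passed the filter on low signals. Individual female C57BL/6J mice were injected subcutaneously on the day of birth with estradiol benzoate (EB, an esterified estrogen, 7.5 µg in 20 µl of peanut oil) or with the oil alone, called vehicle. The whole hypothalamus was taken 1, 3, 6, 12 or 24 h later, which gave 10 groups with 3 mice in each and 30 GeneChip Mouse Genome 430 2.0 arrays, 1 for each mouse. The labels name no transgene or deletion, the methods give a body weight of about 1.4 g, and the sources used here do not say which mice were littermates. No mouse without an injection was analysed here, so time after injection, age and hour of the day cannot be told apart.

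Vasopressin and oxytocin are made by magnocellular neurons of the paraventricular and supraoptic nuclei, which send their axons to the posterior pituitary and release the peptides into the blood. The other peptides are released at the median eminence into portal vessels, where CRH drives ACTH, TRH drives thyrotropin, GHRH drives growth hormone and somatostatin holds growth hormone back. Galanin is a co-transmitter of several of these neurons and of others in the preoptic area and the arcuate nucleus. All are cut from longer precursors in secretory granules, and estrogen acts on parts of this system in the adult brain.

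Avp and Oxt lie next to each other on mouse chromosome 2, on opposite strands and with 0 protein-coding genes between them in the RefSeq annotation. The bases before their start sites are shown because the levels of these neighbours are compared below, and those of Sst because its start holds a full cyclic AMP response element. Each stretch has 250 bases from RefSeq (build GRCm38.p6), written 5′ to 3′ on the gene's own strand. Capitals mark TGACC or its reverse complement GGTCA, an arm of the palindrome that estrogen receptors bind and of the elements of other nuclear receptors, or the cyclic AMP response element TGACGTCA, which reads the same on both strands. The Oxt stretch is chr2:130575919-130576168 on the plus strand, the Avp stretch chr2:130582589-130582838 and the Sst stretch chr16:23890845-23891094, both on the minus strand.
Oxt: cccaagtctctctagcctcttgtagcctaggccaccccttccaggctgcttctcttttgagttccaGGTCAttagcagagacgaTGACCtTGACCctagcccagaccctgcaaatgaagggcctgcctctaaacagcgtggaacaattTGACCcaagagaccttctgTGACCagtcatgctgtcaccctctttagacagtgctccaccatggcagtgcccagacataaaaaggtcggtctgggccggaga
Avp: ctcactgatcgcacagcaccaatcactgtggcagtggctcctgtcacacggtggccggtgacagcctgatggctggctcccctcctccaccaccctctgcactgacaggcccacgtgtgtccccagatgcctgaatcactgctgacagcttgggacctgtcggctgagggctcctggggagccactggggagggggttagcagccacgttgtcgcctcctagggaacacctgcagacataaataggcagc
Sst: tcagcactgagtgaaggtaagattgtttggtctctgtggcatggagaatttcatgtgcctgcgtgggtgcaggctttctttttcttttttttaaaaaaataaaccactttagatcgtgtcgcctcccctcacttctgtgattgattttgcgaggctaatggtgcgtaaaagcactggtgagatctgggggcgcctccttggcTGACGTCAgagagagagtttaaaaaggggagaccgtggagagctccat
The Oxt stretch held 5 matches to TGACC or GGTCA, with first bases at -184, -166, -160, -102 and -83 from the start site, and the Avp stretch held 0. Of 32851 promoters of the same length, 35.2% held at least 1 such match and 0.0426% held at least 5. The Trh and Gal stretches held 1 match each, and each of the 2 starts listed for Ghrh held 1. The full estrogen response element, GGTCA and TGACC with 3 bases between, was in 0 of the members' stretches and in 0.0639% of all. TGACGTCA began at -48 in Sst and was in 1.55% of all promoters. A promoter was found for 6 of the 7 genes, all but Crh. These matches describe letters only, and binding was not measured.

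Signals were scaled so that each array had the same median, since the medians of the deposited signals ranged from 28.0 to 66.9, with the arrays of the 12 h groups highest at 52.9 to 66.9 and the other arrays up to 44.0. Values below are these scaled signals, and differences are log2 differences of group means tested with limma, where a gene passed at a Benjamini-Hochberg adjusted p under 0.05 over 27022 probe sets. Of 12 hypothalamus markers, 10 passed the filter on low signals, among them Otp, Sim1, Pmch and Npy, while Rax did not and Agrp had no probe set of a single symbol. The pituitary markers Prl, Gh, Cga, Tshb, Lhb and Fshb were below the filter. A pair of arrays stood apart as the lowest in hypothalamus markers. In vehicle 6 h replicate 2 the mean of the hypothalamus markers was 0.57 below the average of all arrays on the log2 scale (-0.57) against 0.15 and 0.24 in the other arrays of that group, and that of 5 telencephalon markers was 1.67 above it, against -0.26 and -0.47. Its leptomeninges markers stood at 1.00, against -0.03 and 0.82. Of the markers of thalamus (5 genes), choroid plexus and ependyma (6) and neurons (12), 1 gene passed in EB against vehicle at 24 h, a neuron marker that was lower, and 0 at the other times. In EB 24 h replicate 3 the hypothalamus markers stood at -0.50, against 0.10 and 0.06 in the other arrays of that group. Comparisons whose call changed without the pair low in hypothalamus markers are also given without it. Other arrays were farther from the average in other lists, and the fits without this pair kept them. EB 24 h replicates 1 and 2 stood at -3.53 and -3.31 in leptomeninges markers. EB 12 h replicate 1 stood at -1.01 in telencephalon and 1.28 in leptomeninges markers. In thalamus markers EB 1 h replicate 2 stood at 1.25 and EB 12 h replicate 3 at -1.09. In whole tissue, fewer cells of a type and less RNA per cell cannot be told apart.

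Oxt, the oxytocin precursor, was the only member whose mean log2 signal was higher in EB-treated than in vehicle-treated mice at all 5 times. No such difference in Oxt passed the test. By mean scaled signal Crh was also higher with EB at each time. At 24 h its means were 106 in EB and 91.1 in vehicle, but the difference of log2 means was -0.003. At 1 h, Oxt read 199, 139 and 141 in the vehicle-treated and 184, 187 and 159.6 in the EB-treated mice. At 3 h, Oxt read 188, 177 and 149 in the vehicle-treated and 230.5, 195 and 188 in the EB-treated mice. At 6 h, Oxt read 188, 198 and 171 in the vehicle-treated and 201, 255 and 211 in the EB-treated mice. The arrays overlapped at 1 h, and at 3 h and 6 h every EB array was above every vehicle array by scaled signals. On the deposited scale the arrays overlapped at 3 h and 6 h as well. At 12 h, Oxt read 296, 279 and 256 in the vehicle-treated and 322, 331 and 276 in the EB-treated mice. At 24 h, Oxt read 181, 207 and 201 in the vehicle-treated and 204, 275 and 307 in the EB-treated mice. The 12 h group mean was the highest of either treatment, and at 24 h a pair of EB arrays was above all 3 vehicle arrays while the lowest lay among them. EB minus vehicle was 0.17, 0.26, 0.25, 0.16 and 0.40 on the log2 scale at the successive times, with a standard error of 0.14 at each. The adjusted p was lowest at 24 h (0.137), where the value was 0.28 without EB 24 h replicate 3, and at the other times it lay between 0.444 and 0.902. Averaged over the 5 times the difference was 0.25 (95% interval 0.12 to 0.38, a ratio of 1.19, unadjusted p = 0.000495, adjusted p = 0.141), and it was 0.23 (adjusted p = 0.226) without both arrays that stood apart. Of all probe sets, 3.32% had a higher EB mean of log2 signal at all 5 times. The EB effect did not pass as differing between times (F = 0.47, adjusted p = 0.878).

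Oxt had the clearest differences between times among the 7 genes. Its mean over the 6 arrays of a time was 168 ± 25.4 (SD) at 1 h and then, in order of time, 188 ± 26.6, 204 ± 28.5, 293 ± 28.9 and 229 ± 49.7. The lowest 12 h array, 255.5, was level with the highest array of the earlier times, 255.4, and 2 arrays of EB 24 h were above it. The times differed with both treatments averaged (F = 19.1, adjusted p = 2.78e-06), in vehicle (F = 9.86, adjusted p = 0.00057) and in EB (F = 9.75, adjusted p = 0.00114). From 1 h to 24 h it rose by 0.55 (SE 0.14, a ratio of 1.46, adjusted p = 0.0116) in EB, with every 24 h array above every 1 h array, and differed by 0.32 (adjusted p = 0.174) in vehicle. These changes were not tested against each other. The rise in EB did not pass without any 1 of 3 arrays (EB 1 h replicate 3 and replicates 2 and 3 of EB 24 h), with a lowest value of 0.43, nor without both arrays that stood apart (0.43, adjusted p = 0.0809), and the change in vehicle passed without vehicle 1 h replicate 1 (0.49, adjusted p = 0.046). With the brighter 12 h arrays left out, the times still differed for both treatments averaged (F = 6.29, adjusted p = 0.0151) but not within vehicle or EB alone (adjusted p = 0.337 and 0.0591). When the 10 group means of Oxt were put in order, from vehicle 1 h to EB 12 h at 1.94 times as much, the arrays of neighbours in the order overlapped in every pair.

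Avp, the vasopressin precursor and the neighbour of Oxt, varied more between mice and passed no comparison. At 1 h, Avp read 1522, 1430 and 1049 in the vehicle-treated and 1686, 1218 and 1349 in the EB-treated mice. At 3 h, Avp read 1497, 1523 and 1153 in the vehicle-treated and 1654, 1123 and 1636 in the EB-treated mice. At 6 h, Avp read 1753, 1101 and 2130 in the vehicle-treated and 2121, 1601 and 2315 in the EB-treated mice. Vehicle 6 h replicate 2, which stood apart in its regional markers, was the lowest of its group. At 12 h, Avp read 1516, 1068 and 1310 in the vehicle-treated and 1893, 1466 and 2214 in the EB-treated mice. At 24 h, Avp read 1479, 1513 and 1719 in the vehicle-treated and 1454, 1261 and 1764 in the EB-treated mice. At 12 h a pair of EB arrays was above all vehicle arrays, and the arrays overlapped at every time. EB minus vehicle at 12 h was 0.51 (SE 0.20, unadjusted p = 0.0173, adjusted p = 0.722), and at the other times the difference lay between -0.08 and 0.31. The average over times was 0.18 (95% interval -0.005 to 0.37, adjusted p = 0.584), and 0.10 without both arrays that stood apart. The differences between times did not pass (F = 2.21, adjusted p = 0.145), and passed when vehicle 6 h replicate 2 was left out (F = 4.55, adjusted p = 0.0167) or both arrays that stood apart (F = 4.91, adjusted p = 0.0128). Mean signals were highest at 6 h in both treatments, 1661 ± 520 (SD, n = 3) in vehicle and 2012 ± 369.5 in EB.

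**Figure D1:**
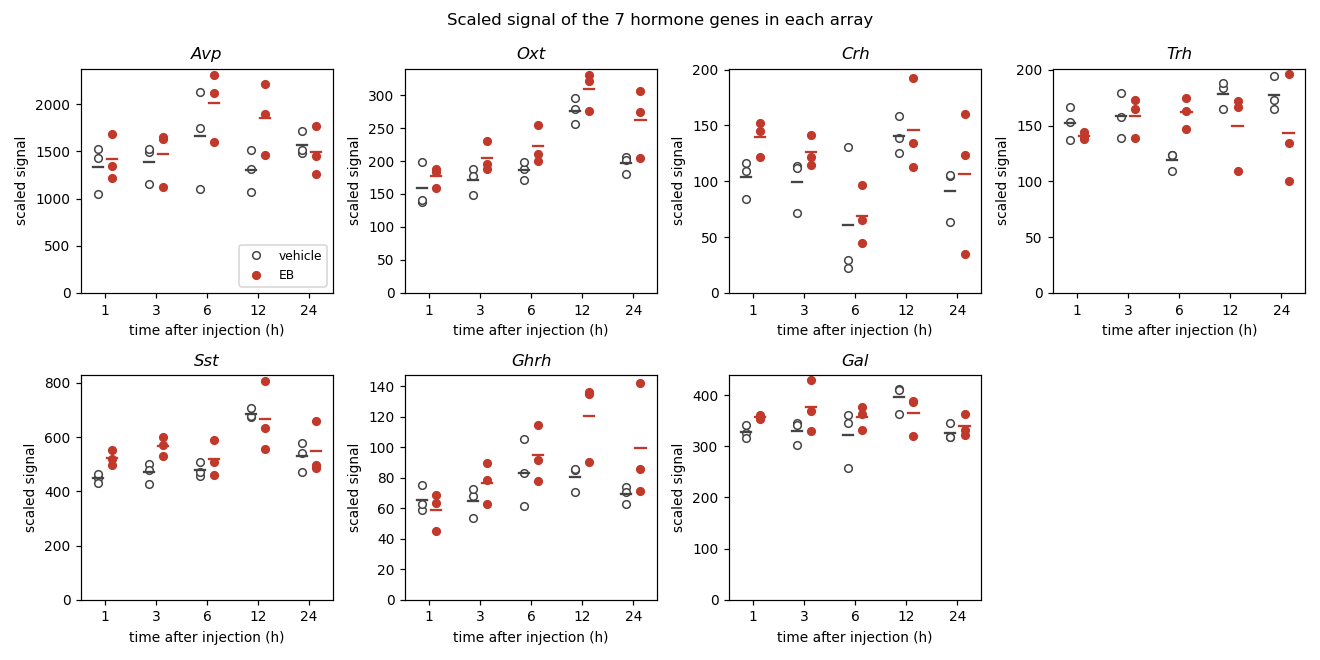
Scaled signal (y axis, from 0) of each of the 7 hormone genes by time since the injection (x axis, h), with an open circle for each vehicle-treated mouse, a filled circle for each EB-treated mouse and a bar at the mean of each group of 3. Oxt and Sst stand highest at 12 h, Crh lowest at 6 h, and the circles of both treatments overlap in most groups.

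Crh, which encodes the releasing hormone of the stress axis, had a low level at 6 h in most mice. At 1 h, Crh read 84.4, 117 and 109 in the vehicle-treated and 152, 121 and 145 in the EB-treated mice. At 3 h, Crh read 71.7, 114 and 111 in the vehicle-treated and 141, 121 and 115 in the EB-treated mice. Every EB array was above every vehicle array at both times by scaled signals, but not on the deposited scale. At 6 h, Crh read 21.9, 131 and 29.5 in the vehicle-treated and 64.9, 96.8 and 44.5 in the EB-treated mice. The vehicle group held the lowest reading of all 30 arrays and, in replicate 2, a reading far above both of the others. The readings of 21.9 and 29.5 were near the lowest mean signal that passed the filter, 21.9, and below the array median of 41.3. At 12 h, Crh read 139, 159 and 125 in the vehicle-treated and 134, 192 and 112 in the EB-treated mice. At 24 h, Crh read 104, 63.1 and 106 in the vehicle-treated and 35.04, 123 and 160.4 in the EB-treated mice. The EB arrays at 24 h spanned 35.0 to 160.4, and the highest was replicate 3, the array with low hypothalamus markers.

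EB minus vehicle for Crh was 0.44, 0.37, 0.58, 0.02 and -0.003 at the successive times (SE 0.45 at each, adjusted p from 0.77 to 0.999). Single arrays moved these values. At 6 h the difference was 1.36 without vehicle 6 h replicate 2 (adjusted p = 0.769) and 0.07 without replicate 1 of that group (adjusted p = 0.988). At 24 h it was -0.43 without EB 24 h replicate 3 (adjusted p = 0.732) and 0.67 without EB 24 h replicate 1 (adjusted p = 0.567). The times differed with both treatments averaged (F = 5.77, adjusted p = 0.00572), with 6-array medians of 119, 114, 54.7, 136 and 105 at the successive times. Without vehicle 6 h replicate 2 the F was 14.1 (adjusted p = 3.42e-05). In vehicle alone the times differed (F = 3.77, adjusted p = 0.0432), a call that was lost in 11 of the 30 fits that each left out 1 array, with adjusted p up to 0.284. Those were replicates 2 and 3 of vehicle 1 h, 1 and 3 of EB 1 h, 2 of vehicle 3 h, 1 and 3 of vehicle 6 h, all 3 of vehicle 12 h and 1 of vehicle 24 h. The call was also lost with quantile normalization (adjusted p = 0.0573), the trimmed mean (0.0674), log2 of signal plus 16 (0.0522), no filter (0.0833) and the 12 h arrays left out (0.172). In EB alone they did not pass (F = 2.33, adjusted p = 0.179), and they passed without vehicle 6 h replicate 2 (adjusted p = 0.0499) and without both arrays that stood apart (F = 6.24, adjusted p = 0.0109). From 1 h to 24 h in EB, Crh differed by -0.65 (adjusted p = 0.392), and without both arrays that stood apart it fell by 1.08 (adjusted p = 0.0497). The highest and lowest group means, EB 12 h and vehicle 6 h, differed 2.41 times in mean scaled signal, the widest such span of the 7 genes. The thalamus markers were below the average of all arrays in each of the 6 arrays of 6 h, between -0.97 and -0.60 in vehicle and -0.87 and -0.06 in EB, and 4 of 5 differed between times with both treatments averaged (49.0% of all probe sets). Neuron markers, of which 9 of 12 differed, lay between -0.24 and -0.14 in the vehicle 6 h arrays and read -0.32, -0.18 and 0.04 in the EB 6 h arrays. The part of the markers of any list in the Crh levels was not tested.

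**Figure D2:**
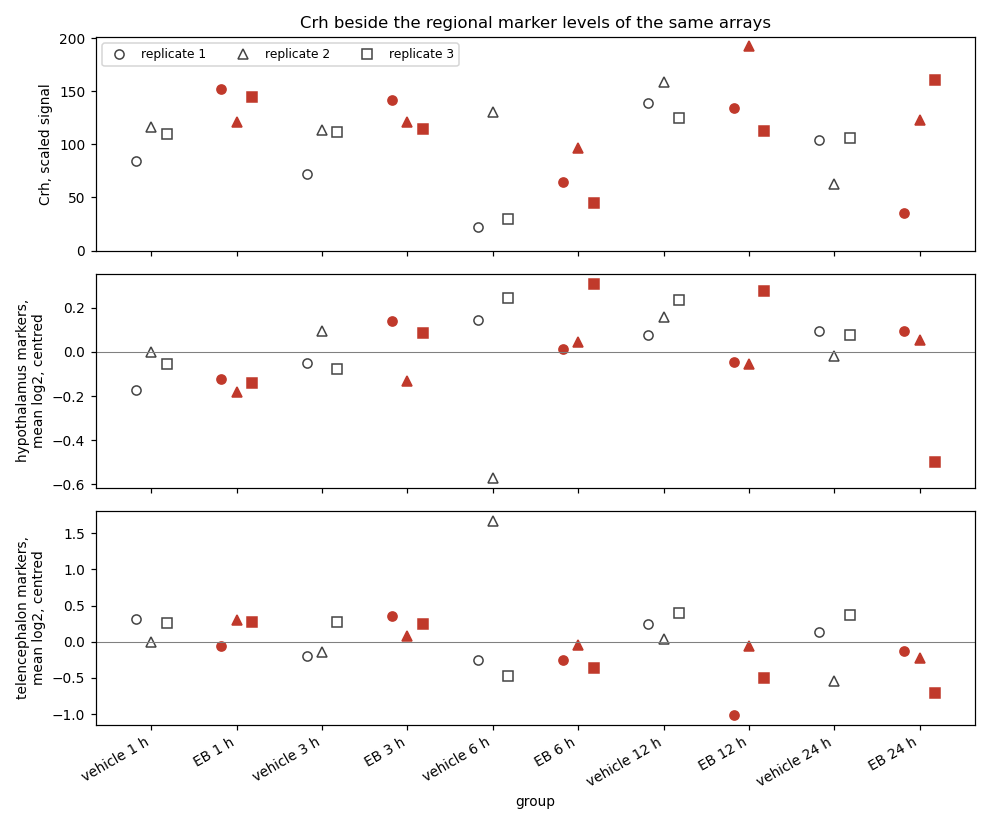
Scaled Crh signal (top, y axis from 0) and the centred mean log2 level of 10 hypothalamus markers (middle) and 5 telencephalon markers (bottom) in each array, by group on the x axis, with open symbols for vehicle, filled for EB and a symbol shape for each replicate number. Vehicle 6 h replicate 2 stands at 131 for Crh, -0.57 for hypothalamus markers and 1.67 for telencephalon markers, and EB 24 h replicate 3 at 160.4, -0.50 and -0.72.

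Trh, the TRH precursor, had its largest EB differences in opposite directions at 6 h and 24 h, and neither passed the test. At 1 h, Trh read 167, 153 and 137 in the vehicle-treated and 141, 138 and 144 in the EB-treated mice. At 3 h, Trh read 139, 179 and 158 in the vehicle-treated and 165, 139 and 173 in the EB-treated mice. At 6 h, Trh read 123, 123 and 109.5 in the vehicle-treated and 147, 163 and 175 in the EB-treated mice. At 6 h the vehicle arrays were among the lowest of the series and lay below all 3 EB arrays. At 12 h, Trh read 165, 183 and 188 in the vehicle-treated and 172, 167 and 109.6 in the EB-treated mice. At 24 h, Trh read 173, 165 and 194 in the vehicle-treated and 100.1, 134 and 196 in the EB-treated mice. A pair of EB arrays at 24 h was below all vehicle arrays, and replicate 3, low in hypothalamus markers, was the highest of all 30. EB minus vehicle was -0.11 and 0.01 at the first times, 0.44 at 6 h (SE 0.17, unadjusted p = 0.0135, adjusted p = 0.69), -0.29 at 12 h and -0.36 at 24 h (adjusted p = 0.30). The EB effect had the largest F of the 7 genes for a difference between times (3.50, unadjusted p = 0.0191, adjusted p = 0.218). Without EB 24 h replicate 3 the difference at 24 h was -0.61 (SE 0.16) and passed (adjusted p = 0.0339), as did the difference of the EB effect between times (F = 6.75, adjusted p = 0.047). Without EB 24 h replicate 1, the lowest array, the difference at 24 h was -0.12 (adjusted p = 0.83). Without both arrays that stood apart the first passed (-0.61, adjusted p = 0.0366) and the second did not (F = 6.20, adjusted p = 0.065). In vehicle the times differed (F = 3.995, adjusted p = 0.0356, lost without any 1 of 6 arrays, all 3 of vehicle 6 h, replicates 2 and 3 of vehicle 12 h and replicate 3 of vehicle 24 h), from a mean of 119 ± 8.01 (SD, n = 3) at 6 h to 179 ± 12.2 at 12 h. In EB they did not pass (F = 0.70, adjusted p = 0.693). All 3 EB 24 h arrays were also low in leptomeninges markers, by -3.53, -3.31 and -0.76 on the centred log2 scale, where the vehicle 24 h arrays lay between -0.13 and 0.16. At 24 h 15 of 16 such genes passed as lower with EB, where 2.77% of all probe sets passed in either direction. Without EB 24 h replicate 3, only the arrays at -3.53 and -3.31 remained in the EB 24 h group. The part of the leptomeninges markers in the 24 h values of the hormone genes was not tested.

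Sst and Ghrh hold back and drive growth hormone, and the levels of both differed between times. At 1 h, Sst read 447, 465 and 430.1 in the vehicle-treated and 552, 519 and 497 in the EB-treated mice. At 3 h, Sst read 502, 426 and 480.1 in the vehicle-treated and 572, 530.3 and 599.9 in the EB-treated mice. The EB arrays were above all vehicle arrays at both times by scaled signals, but not on the deposited scale. At 6 h, Sst read 506, 456 and 471 in the vehicle-treated and 459, 508 and 590.0 in the EB-treated mice. At 12 h, Sst read 673, 707 and 679 in the vehicle-treated and 808, 635 and 555 in the EB-treated mice. At 24 h, Sst read 541, 472 and 578 in the vehicle-treated and 487, 498 and 658 in the EB-treated mice. At these times the arrays overlapped, and the highest readings were at 12 h. EB minus vehicle for Sst was 0.22 at 1 h (SE 0.12, adjusted p = 0.601), 0.28 at 3 h (unadjusted p = 0.0246, adjusted p = 0.299) and between -0.06 and 0.11 from 6 h on. Averaged over times it was 0.12 (95% interval 0.01 to 0.22, adjusted p = 0.513). The times differed with both treatments averaged (F = 10.8, adjusted p = 0.000181) and in vehicle (F = 9.13, adjusted p = 0.000886), but not in EB (F = 3.00, adjusted p = 0.104), and the last passed without EB 12 h replicate 3 or EB 24 h replicate 3 (lowest adjusted p = 0.0294), without both arrays that stood apart (0.0379) and with array weights (0.0218). In vehicle the 12 h mean, 686 ± 17.96 (SD, n = 3), was above the other 4 means, 447 to 530.1. With the brighter 12 h arrays left out, the differences between times in Sst did not pass (F = 1.44, adjusted p = 0.378).

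Ghrh was lowest in the EB 1 h group and highest in the EB 12 h group, a span of 2.04 times. At 1 h, Ghrh read 58.8, 75.1 and 63.05 in the vehicle-treated and 68.7, 44.9 and 63.3 in the EB-treated mice. At 3 h, Ghrh read 67.8, 72.6 and 53.5 in the vehicle-treated and 62.5, 89.95 and 78.3 in the EB-treated mice. At 6 h, Ghrh read 82.9, 61.8 and 105 in the vehicle-treated and 91.95, 78.05 and 115 in the EB-treated mice. Both treatments overlapped at these times. At 12 h, Ghrh read 85.2, 70.6 and 85.8 in the vehicle-treated and 135, 90.3 and 136 in the EB-treated mice. At 24 h, Ghrh read 74.2, 62.8 and 70.7 in the vehicle-treated and 142, 85.6 and 71.3 in the EB-treated mice. At 12 h every EB array was above every vehicle array by scaled signals, but not on the deposited scale. At 24 h the highest reading of the series stood beside 1 within the vehicle range. EB minus vehicle was -0.17, 0.25 and 0.20 at 1, 3 and 6 h, 0.56 at 12 h (SE 0.23, unadjusted p = 0.0189, adjusted p = 0.727) and 0.47 at 24 h (unadjusted p = 0.0473, adjusted p = 0.311). Without EB 24 h replicate 1 the difference at 24 h was 0.18 (adjusted p = 0.816), and without EB 24 h replicate 3 it was 0.68 (adjusted p = 0.139). The average over times was 0.26 (95% interval 0.06 to 0.47, a ratio of 1.2, unadjusted p = 0.0147, adjusted p = 0.429). The times differed in EB (F = 5.94, adjusted p = 0.0117, lost without EB 1 h replicate 2) and with both treatments averaged (F = 5.41, adjusted p = 0.00764), but not in vehicle (F = 1.05, adjusted p = 0.495). The test of an EB effect that differed between times did not pass (F = 1.59, adjusted p = 0.528). From 1 h to 24 h Ghrh rose by 0.72 in EB (SE 0.23, a ratio of 1.64, adjusted p = 0.0391), a call that was lost without any 1 of 4 arrays (replicates 2 and 3 of EB 1 h, replicates 1 and 2 of EB 24 h; lowest value 0.43). In vehicle it differed by 0.08 (adjusted p = 0.877). Without the 12 h arrays the differences between times with both treatments averaged did not pass (F = 3.91, adjusted p = 0.0651).

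Gal, the galanin precursor, varied least. Its group means lay between 321 ± 56.2 (SD, n = 3) in vehicle 6 h and 396 ± 27.9 in vehicle 12 h, a span of 1.23 times. The lowest array, 257, was vehicle 6 h replicate 2, and the highest, 429.8, was in EB 3 h. At 1 h the vehicle arrays read 317 to 342 and the EB arrays 354 to 362, with no overlap, and at the other times the arrays overlapped. On the deposited scale the arrays overlapped at 1 h too. EB minus vehicle lay between -0.12 at 12 h and 0.18 at 3 h (SE 0.11), and the average was 0.08 (95% interval -0.02 to 0.18, adjusted p = 0.656). No comparison between times passed in Gal with either treatment or both (adjusted p from 0.108 to 0.984). With array weights the times differed in Gal for both treatments averaged (F = 3.93, adjusted p = 0.0231) and in vehicle (F = 5.46, adjusted p = 0.00735).

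Across the 7 genes, 0 passed in EB against vehicle at any time by limma, where the share of all probe sets that passed was 0.00370%, 0.474%, 0%, 0% and 2.77% in order of time. None passed for the average over times (0.0740% of all) or for an EB effect that differed between times (0.951% of all). At an unadjusted p under 0.05 there were 0, 1, 1, 2 and 3 of the 7 at 1, 3, 6, 12 and 24 h, 3 for the average and 1 for the difference between times. The share of all probe sets at that p was 8.63%, 12.8%, 6.02%, 6.57% and 15.7% in order of time, 8.69% for the average and 16% for the difference. The 2-factor test of the study's methods on deposited signals gave 0 for treatment and 0 for the interaction after adjustment. By scaled signals, the EB mean of log2 signal was above the vehicle mean in 27 of 35 gene and time pairs. The share of such pairs over all probe sets was not computed, so the count cannot be read as particular to these genes. The median differences of all probe sets were 0.02, 0.05, 0.02, -0.007 and -0.01 in order of time. On the deposited scale they were -0.07, -0.20, 0.07, -0.15 and 0.22. The median over the 7 genes of the averaged difference was 0.18, against 0.01 over all probe sets. By scaled signals, every EB array was above every vehicle array in 3, 3, 2, 1 and 0 of the 7 genes in order of time. The shares of all probe sets were 10.4%, 8.70%, 5.66%, 5.27% and 9.84%. On the deposited scale only Trh at 6 h kept this separation, and the arrays of the other such gene and time pairs overlapped. Shares of all probe sets on the deposited scale were not computed. By scaled signals every EB array was below in 0 of 7 at each time, against 7.12%, 5.30%, 4.32%, 6.07% and 14.3%. Genes read on the same arrays are not independent, and with 3 arrays a side the smallest 2-sided p of an exact permutation test is 0.1.

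**Figure D3:**
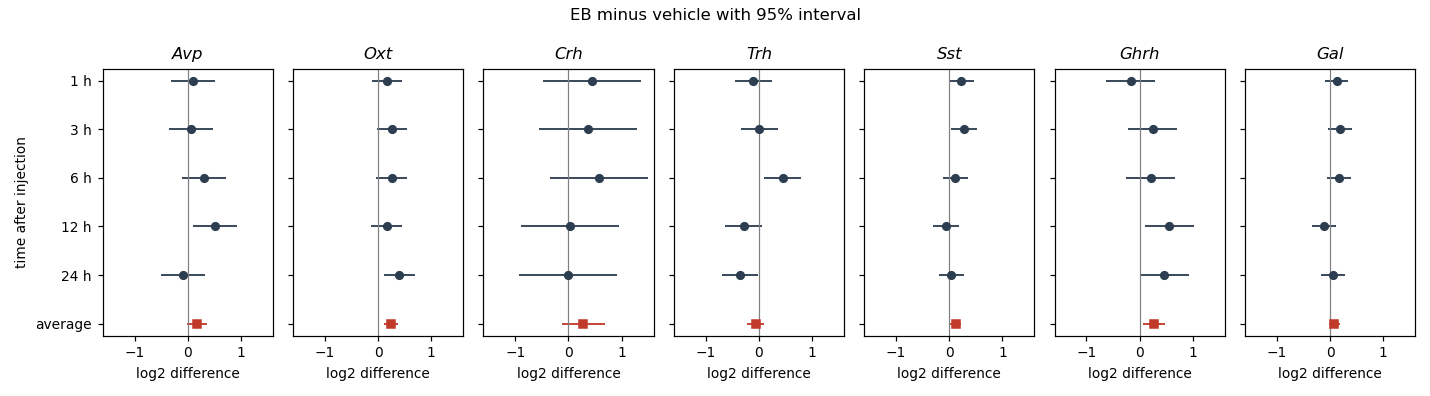
EB minus vehicle (x axis, log2 difference of group means) with its 95% interval from limma for each of the 7 hormone genes, at each time after injection (circles) and averaged over the 5 times (squares). Oxt lies right of 0 at every time with an average of 0.25, Trh is at 0.44 at 6 h and -0.36 at 24 h, and the intervals of Crh are the widest.

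Differences between times, with both treatments averaged, passed in 4 of 7 genes, Oxt, Sst, Crh and Ghrh, close to the 49.0% of all probe sets. In vehicle 4 passed (Oxt, Sst, Trh and Crh; 34.1% of all), and in EB 2 passed (Oxt and Ghrh; 22.8% of all). From 1 h to 24 h, 0 of 7 passed in vehicle by limma (6.77% of all passed; at an unadjusted p under 0.05 there were 2, Oxt and Sst, and 22.3% of all) and 2 in EB (10.2% of all). The vehicle mean was highest at 12 h in 5 of 7 genes, all but Avp and Ghrh, against 36.8% of all probe sets, and the EB mean in 4 of 7, Oxt, Crh, Sst and Ghrh, against 28.8%. After quantile normalization in place of scaling, Trh left the first group and Crh the second. The 12 h arrays were the brightest as deposited, and the part of this in the 12 h levels was not tested beyond the fits without those arrays. Leaving them out, 2 of 7 genes, Oxt and Crh, passed with both treatments averaged (28.1% of all probe sets).

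Within a group of mice of 1 treatment and time, some hormone genes moved together from mouse to mouse. Deviations of the 30 arrays from their group means gave a Pearson r of 0.68 for Trh with Sst, 0.65 for Avp with Gal and 0.55 for Oxt with Trh. The most negative were Crh with Ghrh (-0.64) and Oxt with Ghrh (-0.60), and in 8 of 10 groups the mouse highest in Oxt was the lowest in Ghrh. The neighbours Avp and Oxt had an r of 0.03. Without the 2 arrays farthest from the median of the first gene, these values were 0.56, 0.49, 0.42, -0.47, -0.52 and 0.07, and the Spearman coefficients were 0.53, 0.57, 0.40, -0.53, -0.56 and 0.04. The points share arrays and their scaling, and the regional markers of an array differ too, so they are given as a description.

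**Figure D4:**
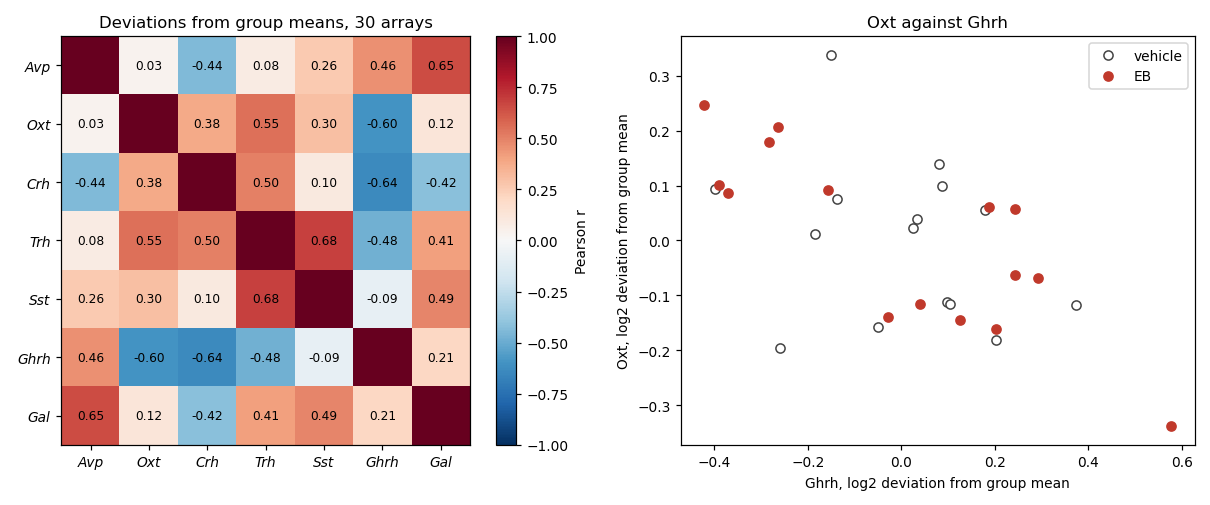
Left, Pearson r between the 7 hormone genes over the log2 deviations of 30 arrays from their group means, as a colour and a number in each cell. Right, the deviation of Oxt (y axis, log2) against that of Ghrh (x axis, log2) in each array, open for vehicle and filled for EB, where r is -0.60.

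Over the scaled log2 signals of all 30 arrays, the genes most like each hormone gene were named by Pearson r, as a description. Sst was closest to Nrxn2, a neurexin of the presynaptic membrane (r = 0.93, Spearman rho = 0.90), then Ak1 and Slc27a4. Oxt was closest to Neurl1a, a ubiquitin ligase (r = 0.88, rho = 0.86), then Slc35a5 and Chtf8. Crh was closest to Meis2, a homeobox transcription factor (r = 0.85, rho = 0.74), then Gng8 and Reln, which encodes the matrix protein reelin. Ghrh was closest to Npy, the arcuate neuropeptide Y (r = 0.84, rho = 0.74), then Ghr, the growth hormone receptor (r = 0.83), and Camk2a, a calcium-dependent kinase. Trh was closest to Gad1, a GABA-synthesizing enzyme (r = 0.79, rho = 0.74), Gal to Lhfpl5 (r = 0.77) and Avp to Deptor, an inhibitor of the mTOR kinase (r = 0.71, rho = 0.54).

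The receptors of these peptides were read in the same tissue. Of 17 listed, 9 passed the filter on low signals (Avpr1a, Oxtr, Crhr1, Trhr, Sstr2, Sstr4, Sstr5, Crhr2 and Galr1), and 0 of 9 passed in EB against vehicle at any time. Differences between times with both treatments averaged passed in 5 of 9, Oxtr, Crhr1, Trhr, Sstr4 and Galr1, where 49.0% of all probe sets passed. Trhr, the TRH receptor, rose in vehicle from 77.9 ± 5.40 (SD, n = 3) at 1 h to 142 ± 12.1 at 24 h, by 0.87 on the log2 scale (SE 0.19, adjusted p = 0.00569). On the deposited scale that rise was 0.57 and did not pass (adjusted p = 0.0962), where all probe sets had a median of -0.25. In EB, Trhr read 102 ± 20.2 at 1 h and 140.3 ± 12.3 at 24 h, a difference of 0.47 that did not pass (adjusted p = 0.104). Oxtr, the oxytocin receptor, read 48.4 ± 1.59 in vehicle and 38.2 ± 1.34 in EB at 1 h, and 47.1 ± 9.39 and 56.7 ± 5.21 at 12 h. The EB difference in Oxtr at 1 h was -0.34 (adjusted p = 0.67). At 3, 6, 12 and 24 h it was 0.33, 0.32, 0.28 and 0.30 (adjusted p from 0.502 to 0.893). Of 8 related peptides and binding or degrading proteins 2 passed the filter, Crhbp, the CRH-binding protein, and Trhde, the TRH-degrading ectoenzyme, and neither passed a comparison.

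Of 17 proteins that process prohormones or build granules, 16 passed the filter. In EB against vehicle at 24 h 1 of the 16 passed (2.77% of all probe sets), Cpe, the carboxypeptidase that trims peptide hormone precursors. Cpe read 8470 ± 235 (SD, n = 3) in vehicle and 6643 ± 23.1 in EB at 24 h, a log2 difference of -0.35 (SE 0.06, adjusted p = 0.00199), and its EB effect differed between times (F = 7.54, adjusted p = 0.0391). The Cpe call was kept in each of the 30 fits without 1 array and held with the trimmed mean (-0.33, adjusted p = 0.000661). The Cpe difference was -0.12 (adjusted p = 0.587) on the deposited scale and 0.02 (adjusted p = 0.91) after quantile normalization, where its sign turned. In 13 of the 16 the times differed with both treatments averaged (49.0% of all probe sets), and from 1 h to 24 h in EB 4 passed by scaled signals (10.2% of all), Scg3 (-0.30) and Cpe (-0.24) lower and Pam (0.58) and Cadps2 (0.45) higher, of which Cpe was at 0.09 after quantile normalization. These calls were lost in 1, 2, 9 and 4 of the 30 fits without 1 array, and none of the 4 passed on the deposited scale (lowest adjusted p = 0.10). In vehicle Qpct, which forms the pyroglutamate end of TRH, passed (0.40, adjusted p = 0.0314; 0.10 and adjusted p = 0.69 on the deposited scale), and its call was lost in 4 of the 30 fits. Of 15 transcription factors of neuroendocrine neurons, 12 passed the filter. With EB at 24 h 1 of the 12 was lower (2.77% of all probe sets passed), Arnt2, a partner of Sim1, at -0.29 (adjusted p = 0.0409). Arnt2 lost its call without each of the 6 arrays of 24 h, on the deposited scale (-0.07, adjusted p = 0.805) and after quantile normalization (-0.23, adjusted p = 0.141). The part of the low leptomeninges markers of the EB 24 h arrays in the Cpe and Arnt2 values was not tested. Differences between times with both treatments averaged passed in 4 of these 12 (49.0% of all probe sets), Dlx1, Dlx2, Isl1 and Nr3c1, the glucocorticoid receptor. Within vehicle 6 of the 12 passed (34.1% of all) and within EB 1 (22.8% of all).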

How the data were processed

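Hypothalamic RNA of individual newborn female mice was read on 30 arrays, 3 in each of 10 groups of EB or vehicle. The authors deposited linear MAS5 signal intensity values. Neither the software version nor its scaling was given in the sources used here. The number of arrays limits the precision, and 0 columns had no sample. Array medians were set to their mean (41.3), signals under 1 were set to 1, log2 was taken, 64 control probe sets and the lowest 40% by mean were left out, and 27022 probe sets were kept. A model with 10 group means was fitted to all arrays with limma 3.58.1 (eBayes with trend, R 4.3.3), 12 comparisons were made, and p-values were adjusted by Benjamini-Hochberg over all probe sets kept. The fit was tested on simulated data. Figures used matplotlib 3.10.9.

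The members, gene lists and tests were chosen with earlier results of these data known. Named were all 7 members, list genes past the threshold (at most 5 in a list and comparison), receptors, and the 3 genes most like each member. Of the genes past the filter a list used the brightest probe set. Symbols were those of the platform annotation, and promoters came from RefSeq. Alternatives covered scaling (none, quantile, 2% trimmed mean), log2 of signal plus 16, no filter, array weights, the replicate number as a block, the 6 arrays of a time, the methods' 2-factor test and leaving out each array.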

Additional observations from a re-analysis of the deposited data

How the results depend on the processing

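Of 84 member values in 3283 alternatives, 0 reversed, 43 lost and 29 gained a call, and 49 changed sign without a call on either side. For EB against vehicle, 0 of 7 genes passed at 1, 3, 6 and 12 h and for the average under all alternatives run. Leaving out each array in turn gave 0 to 1 at 24 h, 0 to 1 for the EB effect between times, 4 to 5 for times with both treatments averaged, 2 to 4 for times in vehicle, 1 to 3 for times in EB, 0 to 1 from 1 h to 24 h in vehicle and 0 to 2 in EB. Without scaling, 7 of 7 differed between times with both treatments averaged, in vehicle and in EB (97.7%, 94.8% and 89.8% of all probe sets), and 0 from 1 h to 24 h in EB. The deposited signals shifted the median of all probe sets by -0.20 at 3 h and 0.22 at 24 h between EB and vehicle. Times in vehicle gave 2 with the trimmed mean (32.7% of all probe sets) and 2 with no filter, and 24 h minus 1 h in EB gave 1 with no filter. The methods' 2-factor test called 7 for time, as it did for 26260 of all probe sets. A few alternatives were chosen after seeing the data. Leaving out the 12 h arrays gave 2 for times averaged, 0 in vehicle and 0 in EB (28.1%, 15% and 12.4% of all probe sets). Leaving out both arrays lowest in hypothalamus markers gave 1 at 24 h (Trh; 2.68% of all) and 4 for times in EB (Crh and Sst gained; 21.9%). It also gave 5 for times averaged (Avp gained; 47.2%) and 2 from 1 h to 24 h in EB (Crh gained, Oxt lost; 8.48%). Array weights gave 5 for times averaged and 5 in vehicle (Gal gained in both) and 3 in EB (Sst gained). The shares of all probe sets with array weights, with no filter and in the fits without 1 array were not computed. The cause of these changes was not tested beyond what each alternative leaves out.

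With the replicate number as a replicate block, the counts were 0 for each EB comparison, 4, 4 and 2 for times averaged, in vehicle and in EB, 0 for 24 h minus 1 h in vehicle and 2 in EB, and no count changed. Same-numbered deviations correlated weakly, between -0.13 and 0.088, over 0.1 in 0 of 15 pairs. Still, 9 of the 15 EB arrays correlated best with the vehicle array of their own number, among them all those of 1 h and 3 h. Whether the numbers pair the arrays was not tested beyond this. No gene had another probe set, so that alternative could not be run.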
